A study of Mus musculus with 6 samples.

Results

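The growth hormone signalling axis was followed through 10 genes, which are Socs2, Cish, Bcl6, Ghr, Jak2, Stat5a, Stat5b, Igf1, Igfals and Igfbp1, out of 24532 genes in the deposited gene table. They were taken by gene symbol, as a pathway set selected on the values of Socs2, which were higher with recombinant human cytoglobin (rhCYGB). That contrast of rhCYGB with vehicle therefore chose the set, and the members' differences are given as a description with no test. All 10 passed the filter on low counts, which kept 14415 genes.

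Liver RNA came from 6 wild-type C57BL/6 mice, 3 per group, each labelled with its own animal number; age was not among the labels. Chow containing 0.1% DDC, a porphyrin-forming compound that injures bile ducts, was fed to every animal over 4 weeks. Injections began after the first 2 of these weeks and were given 2 times weekly, with 2 mg/kg of the protein in the rhCYGB group and normal saline in the vehicle group, and livers were taken 2 days after the final injection. A group without DDC was not analysed here, so the effect of the diet itself is not described. Replicates are numbered 1 to 3 in order of deposition and the numbers pair no animals.

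In liver, growth hormone binds its receptor GHR, which activates the kinase JAK2 and, through it, the transcription factors STAT5A and STAT5B. STAT5 switches on the circulating growth factor gene Igf1 and its carrier gene Igfals, and also Socs2 and Cish, whose proteins bind the activated receptor and limit further signalling. BCL6 represses many STAT5 target genes, and IGFBP1, which binds IGF1 in plasma, comes from a gene that insulin represses.

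RefSeq promoter windows on GRCm38.p6, each 300 bases long with 250 before and 50 after an annotated start, were found for 9 of the 10 genes; Socs2 had no entry. Each window was searched for the STAT5-type letters TTCNNNGAA, which read the same on both strands and overlap the letters that BCL6 binds, and for CAAAACAA on either strand, a part of the insulin response element described for Igfbp1. TTCNNNGAA was in 8.30% of 32851 such mouse windows and 2 or more copies were in 0.457%, while CAAAACAA was in 2.51%. For each gene with a match, stretches that held one follow, with the match in capitals.
Cish, chr9:107296639-107296680, plus strand: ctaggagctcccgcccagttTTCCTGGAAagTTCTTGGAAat
Bcl6, chr16:23981354-23981463, minus strand: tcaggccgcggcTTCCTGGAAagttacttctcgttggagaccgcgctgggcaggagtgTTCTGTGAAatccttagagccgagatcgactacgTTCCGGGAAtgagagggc
Igfals, chr17:24877594-24877628, plus strand: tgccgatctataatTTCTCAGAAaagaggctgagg
Igfals, chr17:24878156-24878195, plus strand: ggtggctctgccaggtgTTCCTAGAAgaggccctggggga
Igfbp1, chr11:7197662-7197706, plus strand: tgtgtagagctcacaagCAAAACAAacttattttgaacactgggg

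The Cish window held 2 STAT5-type matches, at bases 1 to 9 and 12 to 20 counted from the annotated start. The 2 windows of Bcl6 held 4 matches, 3 of them in the stretch above, and the first of those 3 has the same 9 letters, TTCCTGGAA, as the first match in Cish. The 3 windows of Igfals held 2 matches, both in windows of starts that lie upstream of the Igfals transcript in the deposited table, which starts at chr17:24878770. The Igfbp1 match lay at chr11:7197679-7197686, before the start. The windows of Ghr, Jak2, Stat5a, Stat5b and Igf1 held neither set of letters, which says only that they are not in these windows. A match is a description of letters, and binding was not measured.

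Estimated counts summed to between 58422095 and 72431373 in each library, and 14933 to 16290 genes had a count. Values below are CPM (counts scaled to a fixed library total) after TMM scaling, or TPM (the same after division by transcript length) rescaled from the authors' FPKM where genes are compared with each other. rhCYGB replicates 2 and 3 stood apart from the other 4 libraries. Their TMM factors were 0.74 and 0.63, against 1.07 to 1.45 elsewhere, and their log2 expression deviated by -0.35 and -0.33 per doubling of transcript length, against -0.02 to 0.40 elsewhere. Rn45s, the ribosomal RNA gene, took 1.74% of counts in rhCYGB replicate 3 and 0.225% to 0.443% in the others. Values without rhCYGB replicates 2 and 3, and several without rhCYGB replicate 1, are therefore also given. Those without rhCYGB replicates 2 and 3 rest on rhCYGB replicate 1 alone against the vehicle libraries. The part of these library differences in the members' values was not tested.

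Hepatocyte markers, from Alb to Hnf4a, were all present, as the liver label requires, with a summed level of 57996 to 99287 CPM in vehicle livers, against 88621 to 194508 in rhCYGB livers, the highest sums being in rhCYGB replicates 2 and 3. The log2 fold change was above 0 for 7 of 7 of them with a median of 0.89, but the median was -0.07 without rhCYGB replicates 2 and 3. On log2(TPM + 1) it was 0.05, where the median of all genes was -0.51. Bile duct cell markers summed to 948 to 1052 CPM in vehicle livers, against 195 to 588 in rhCYGB livers. That sum was mostly Spp1 (892 to 975 CPM and 113 to 542 CPM), and without Spp1, chosen after seeing the data, it overlapped, at 56.2 to 77.8 and 45.8 to 81.6 CPM. Of these 5 markers Krt19 and Krt7 had a log2 fold change above 0 and 3 had one below. Stellate cell markers summed to 237 to 271 and 73.0 to 197 CPM, with 1 of 6 above 0. Sums overlapped between the groups for endothelial (71.5 to 100.3 and 49.9 to 104 CPM), macrophage (1022 to 1874 and 934 to 1647 CPM), lymphocyte (4.87 to 26.9 and 0.850 to 9.44 CPM) and erythroid markers (133 to 975 and 159 to 765 CPM). Of the muscle and fat markers Adipoq and Plin1 had 0 counts in every library and the 4 summed to at most 0.106 CPM, and of the pancreas markers Cpa1 had 0 and the 3 summed to at most 12.5 CPM. In whole liver, fewer cells of a type and less RNA per cell cannot be told apart.

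The groups separated without overlap in CPM for 1 of the 10 members, Socs2, against 13.4% of all genes tested (6.02% higher and 7.38% lower with rhCYGB). Since that contrast chose the set, nothing is read from this count. Of the fitted log2 fold changes of rhCYGB over vehicle, 5 were above 0 (Socs2, Cish, Igf1, Igfals and Igfbp1) and 5 below 0 (Bcl6, Ghr, Jak2, Stat5a and Stat5b), where 46.8% of all genes were above 0 and 53.2% below. Their median was 0.27, beside -0.06 for all genes. By edgeR's quasi-likelihood test with Benjamini-Hochberg adjustment, 0% of the 14415 genes, that is 0 genes, passed an adjusted p of 0.05, while 1170 genes (8.12%) had an unadjusted p under 0.05. DESeq2 called 65 of the 1558 genes it gave an adjusted p (4.17%).

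**Figure D1:**
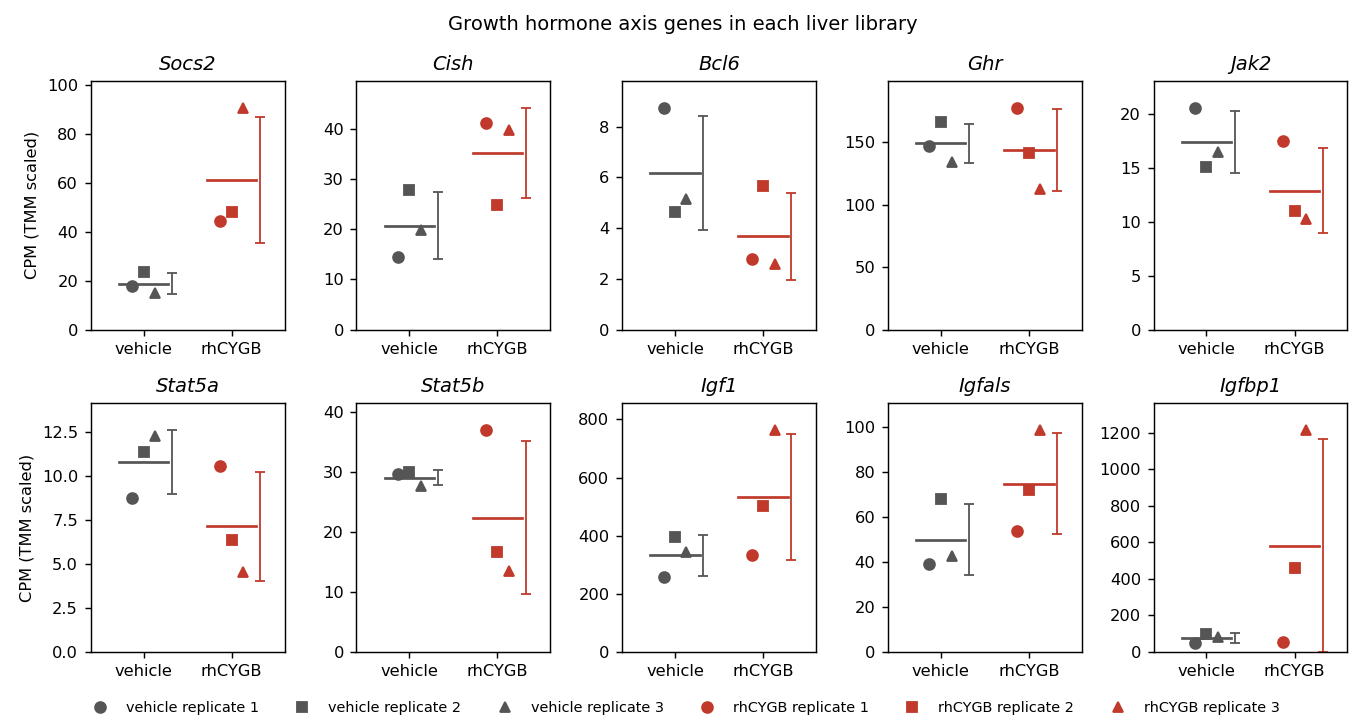
CPM (TMM scaled, linear axes from 0) of the 10 genes in each library; symbols mark replicates 1 to 3, horizontal lines the group means and side bars 1 SD (n = 3 mice; the lower arm of the rhCYGB bar of Igfbp1 stops at 0). Socs2 is the 1 gene whose groups do not overlap, and for Stat5a, Stat5b, Igf1 and Igfbp1 rhCYGB replicate 1 lies nearer to the vehicle libraries than rhCYGB replicate 3 does.

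Socs2 (gene 216233, chromosome 10, 95411490 to 95416857 on mm10) encodes the suppressor of cytokine signalling that curbs growth hormone action in liver. It was at 18.0, 23.6 and 14.9 CPM in vehicle replicates 1 to 3 and at 44.6, 47.9 and 90.8 CPM in rhCYGB replicates 1 to 3. All 3 rhCYGB libraries were above all 3 vehicle libraries, including rhCYGB replicate 1, and rhCYGB replicate 3 was the highest. The means were 18.8 ± 4.39 and 61.1 ± 25.8 CPM (SD, n = 3), a log2 fold change of 1.70 (SE 0.36). In TPM the values were 22.9, 18.9 and 13.5 in vehicle livers, against 43.8, 23.3 and 37.9 in rhCYGB livers, so rhCYGB replicate 2 was then close to vehicle replicate 1. The log2 fold change was 0.87 on log2(TPM + 1), a scale on which all genes had a median of -0.51. It was 1.24 without rhCYGB replicates 2 and 3.

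Cish (gene 12700, chromosome 9, 107296659 to 107302784), which encodes the related feedback protein CIS, was at 14.4, 27.8 and 19.9 CPM in vehicle livers, against 41.1, 24.8 and 39.7 in rhCYGB livers. rhCYGB replicates 1 and 3 were above every vehicle library, and rhCYGB replicate 2 lay between vehicle replicates 3 and 2. The means were 20.7 ± 6.72 and 35.2 ± 9.03 CPM (SD, n = 3), a log2 fold change of 0.76 (SE 0.34). On log2(TPM + 1) it was 0.03, or 0.54 above the median of all genes on that scale. In TPM rhCYGB replicate 1 was highest at 29.5, and rhCYGB replicates 2 and 3, at 8.83 and 12.1, were below the vehicle libraries at 13.4 to 16.4.

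Bcl6 (gene 12053, chromosome 16, 23965050 to 23988852), the repressor of STAT5 targets, had the lowest level of the 10 genes. It was at 8.74, 4.62 and 5.13 CPM in vehicle livers, against 2.78, 5.64 and 2.60 in rhCYGB livers, where replicate 2 overlapped the vehicle range. The log2 fold change was -0.75 (SE 0.44), and it ranged from -1.70 to -0.07 over 15 alternative settings, with -1.16 without rhCYGB replicates 2 and 3. In TPM the groups did not overlap, at 6.92, 1.72 and 2.91 in vehicle livers, against 1.26, 1.27 and 0.50 in rhCYGB livers; on that scale 14% of all genes were separated (1.33% higher and 12.7% lower), and Socs2 was the other member that was.

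Ghr (gene 14600, chromosome 15, 3317755 to 3583352), the receptor gene, was at 147, 166 and 134 CPM in vehicle livers, against 178, 141 and 112 in rhCYGB livers. The groups overlapped, with rhCYGB holding both the highest and the lowest library. The means were 149 ± 15.8 and 144 ± 32.7 CPM (SD, n = 3), a log2 fold change of -0.05 (SE 0.28). Its sign depended on the setting: -0.78 on log2(TPM + 1), or -0.27 relative to the median of all genes there, -0.24 without rhCYGB replicate 1, 0.05 with the length trend removed, 0.09 without rhCYGB replicate 3, 0.03 without vehicle replicate 2 and 0.25 without rhCYGB replicates 2 and 3.

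Jak2 (gene 16452, chromosome 19, 29251803 to 29313080), the kinase bound to the receptor, was at 20.5, 15.1 and 16.5 CPM in vehicle livers, against 17.5, 10.97 and 10.2 in rhCYGB livers. rhCYGB replicates 2 and 3 were below every vehicle library and replicate 1 was within the vehicle range, giving a log2 fold change of -0.43 (SE 0.30). That value was -0.06 with the length trend removed and -0.72 without rhCYGB replicate 1, and without rhCYGB replicates 2 and 3 it was -0.0014.

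Stat5a (gene 20850, chromosome 11, 100859351 to 100885169) and Stat5b (gene 20851, chromosome 11, 100780731 to 100850585) are neighbouring genes for closely related transcription factors, of which STAT5B carries most growth hormone signalling in liver. Stat5b was at 29.7, 30.1 and 27.7 CPM in vehicle livers, against 37.1, 16.6 and 13.5 in rhCYGB livers. The vehicle libraries lay close together, at 29.1 ± 1.28 CPM (SD, n = 3), while rhCYGB replicate 1 was above all of them and replicates 2 and 3 were below, at 22.4 ± 12.8 CPM in all. The log2 fold change was -0.38 (SE 0.40), -0.95 without rhCYGB replicate 1 and -0.13 without rhCYGB replicate 3. It was 0.34 without rhCYGB replicates 2 and 3, so its sign rested on those 2 libraries together.

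Stat5a was at 8.77, 11.4 and 12.3 CPM in vehicle livers, against 10.6, 6.36 and 4.54 in rhCYGB livers, a log2 fold change of -0.59 (SE 0.37). Again rhCYGB replicates 2 and 3 were below every vehicle library and replicate 1 was among them. The value was -0.99 without rhCYGB replicate 1 and -0.04 without rhCYGB replicates 2 and 3. Of the 100-base windows of the GENCODE M21 Stat5a transcript 6.99% also occurred in Stat5b, with a longest shared run of 324 bases, so the authors' division of reads between these 2 genes is uncertain over that part.

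Igf1 (gene 16000, chromosome 10, 87858265 to 87937047), the main circulating mediator of growth hormone, was at 256, 397 and 342 CPM in vehicle livers, against 332, 504 and 764 in rhCYGB livers. rhCYGB replicates 2 and 3 were above every vehicle library and replicate 1 was within their range. The means were 332 ± 71.0 and 533 ± 218 CPM (SD, n = 3), a log2 fold change of 0.69 (SE 0.39). In TPM the 6 libraries were at 101, 98.8, 96.3, 101, 74.3 and 96.9, vehicle first, with no library above the vehicle range. The log2 fold change was -0.13 on log2(TPM + 1), or 0.38 above the median of all genes on that scale. It was 1.22 with the length trend removed, 0.33 without rhCYGB replicate 3 and -0.0067 without rhCYGB replicates 2 and 3.

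Igfals (gene 16005, chromosome 17, 24878770 to 24882008), which makes the acid-labile subunit that holds IGF1 in a stable plasma complex, was at 39.0, 68.1 and 42.8 CPM in vehicle livers, against 54.0, 72.2 and 99.0 in rhCYGB livers. rhCYGB replicate 1 lay within the vehicle range and the other 2 above it, a log2 fold change of 0.59 (SE 0.33). The value was -0.15 on log2(TPM + 1), or 0.36 above the median of all genes on that scale. It was 0.33 without rhCYGB replicate 3 and 0.10 without rhCYGB replicates 2 and 3.

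Igfbp1 (gene 16006, chromosome 11, 7197787 to 7202546), whose protein binds IGF1 and which insulin represses, had the largest fitted difference of the 10 genes. It was at 47.3, 97.7 and 80.0 CPM in vehicle livers, against 54.7, 461 and 1216 in rhCYGB livers. rhCYGB replicate 1 was inside the vehicle range and replicates 2 and 3 were far above it, so the rhCYGB SD of 589 CPM was larger than the mean of 577 CPM. The log2 fold change was 2.94 (SE 0.97), 1.38 on log2(TPM + 1), 1.79 without rhCYGB replicate 3 and -0.46 without rhCYGB replicates 2 and 3. Igfbp1 has the lowest mean transcript length of the 10, at 1520 bases, and with the length trend removed its value was 2.75.

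**Figure D2:**
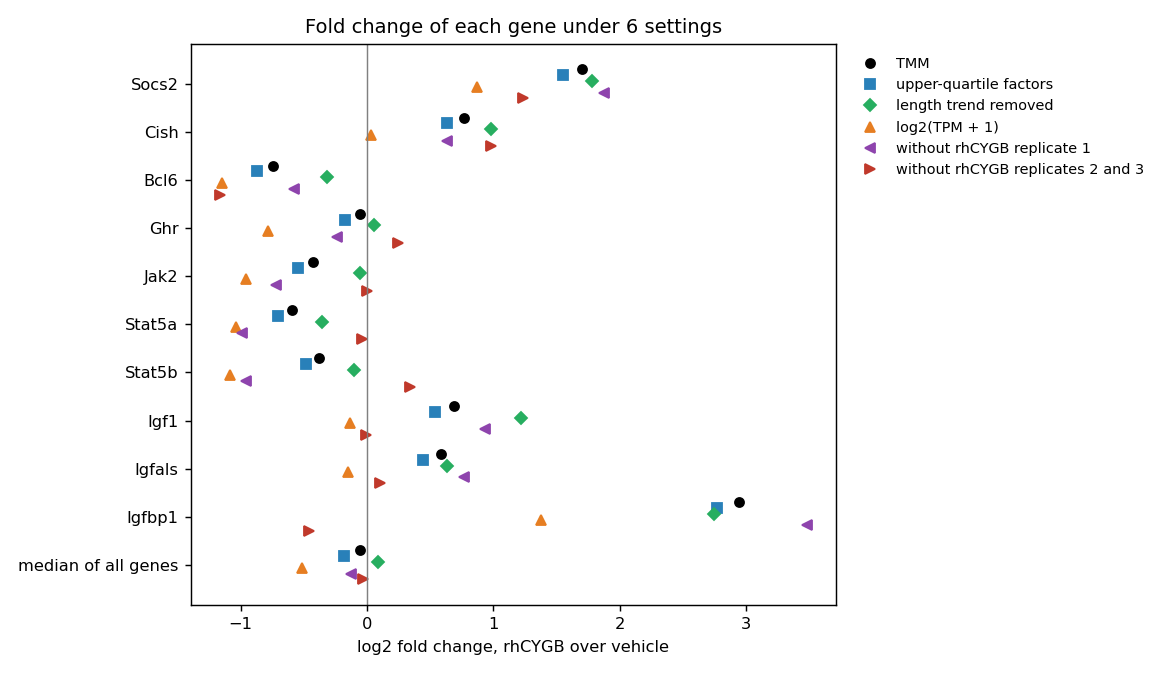
Log2 fold change of rhCYGB over vehicle (horizontal axis) for each gene and for the median of all genes tested, under 6 settings marked by symbol and colour. Socs2, whose higher values with rhCYGB chose the set, stays above 0 in all 6, between 0.87 and 1.88, and nothing is read from its sign. Ghr, Stat5b, Igf1, Igfals and Igfbp1 have values on both sides of 0.

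Per length, in TPM over the 3 vehicle libraries, the levels ran from Ghr at 133 ± 19.2 through Igfbp1 at 102 ± 13.6, Igf1 at 98.8 ± 2.48 and Igfals at 49.9 ± 8.52 to Socs2 at 18.4 ± 4.70 (SD, n = 3). Below these came Cish at 14.5 ± 1.67, Stat5b at 12.7 ± 3.64, Jak2 at 7.74 ± 3.26, Stat5a at 6.01 ± 0.606 and Bcl6 at 3.85 ± 2.72 TPM (SD, n = 3). The ranges of neighbours in this order overlapped, except between Igf1 and Igfals and between Igfals and Socs2. Within each vehicle library Ghr was also above Igfbp1, Socs2 above Cish and Stat5b above Jak2. Ghr and the genes of the secreted products were thus more abundant than the kinase, the STAT5 genes and the feedback genes. The Ghr level sums all its transcripts. A short one, for a secreted binding protein, held 52.6%, 67.5% and 61.9% of Ghr FPKM in vehicle replicates 1 to 3. The first rank of Ghr is therefore not that of the receptor transcripts alone. With rhCYGB, Igfbp1 had the highest mean, 379 ± 332 TPM (SD, n = 3), which came from replicates 2 and 3 at 326 and 734 TPM. In rhCYGB replicate 1 it was at 77.7 TPM, below Ghr at 116 and Igf1 at 101 TPM. Socs2, at 34.97 ± 10.54 TPM, was below Igfals, at 45.0 ± 9.39 TPM (SD, n = 3), within each rhCYGB library, though their ranges overlapped.

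Ratios of TPM between 2 genes of the same library do not depend on how libraries are scaled, and 7 such ratios were computed. The library trends with transcript length given above do not cancel in them where the 2 genes differ in length. Mean lengths were 1520 bases for Igfbp1, 2204 for Socs2, 2487 for Ghr, 5063 for Stat5b and 7160 for Igf1. The part of those trends in the ratios was not tested. Socs2 over Ghr was 0.151, 0.142 and 0.119 in vehicle livers, against 0.377, 0.306 and 0.763 in rhCYGB livers, with no overlap. Socs2 over Igf1 was 0.226, 0.191 and 0.140 in vehicle livers, against 0.434, 0.314 and 0.391 in rhCYGB livers, and Socs2 over Stat5b was 1.36, 1.86 and 1.22 in vehicle livers, against 2.74, 6.87 and 16.0 in rhCYGB livers, also with no overlap. All 3 contain the gene that chose the set.

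Socs2 over Cish, the ratio of the feedback pair, was 1.68, 1.15 and 1.006 in vehicle livers, against 1.49, 2.64 and 3.13 in rhCYGB livers, where replicate 1 lay within the vehicle range. Stat5b over Stat5a overlapped throughout, at 1.75 to 2.63 in vehicle livers, against 1.93 to 2.68 in rhCYGB livers, and so did Igf1 over its carrier Igfals, at 1.73 to 2.38 and 1.83 to 2.25. Igfbp1 over Igf1 was 0.862, 1.15 and 1.09 with vehicle, 0.770 in rhCYGB replicate 1, and 4.39 and 7.58 in rhCYGB replicates 2 and 3.

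**Figure D3:**
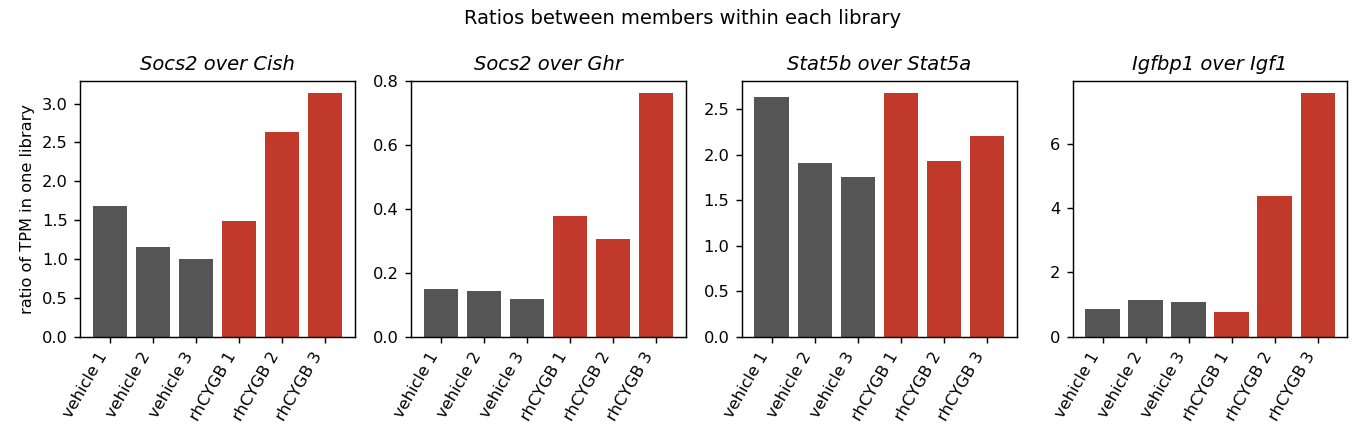
Ratio of TPM between 2 member genes within each library (linear axes from 0; grey bars vehicle, red bars rhCYGB, replicates 1 to 3). Socs2 over Ghr is higher in all 3 rhCYGB libraries, whereas Igfbp1 over Igf1 is raised in rhCYGB replicates 2 and 3 and is 0.770 in replicate 1.

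Ghr is spliced into long transcripts for the receptor and, in mouse, a short one for the secreted growth hormone binding protein. The short transcript (1335 bases) made up 52.6%, 67.5% and 61.9% of the summed Ghr FPKM with vehicle and 30.0%, 76.4% and 74.9% with rhCYGB. rhCYGB replicate 1 was the lowest of all and replicates 2 and 3 the highest, so the group means, 60.7% and 60.5%, hid a wide spread within rhCYGB. The 2 long transcripts together were at 109, 98.5 and 87.5 CPM in vehicle livers, against 156, 68.6 and 58.3 in rhCYGB livers. The short one was at 38.0, 67.3 and 46.9 CPM in vehicle livers, against 21.5, 72.4 and 54.1 in rhCYGB livers. The libraries with the lowest length slopes, rhCYGB replicates 2 and 3, had the highest short shares, and the part of that slope was not tested.

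**Figure D4:**
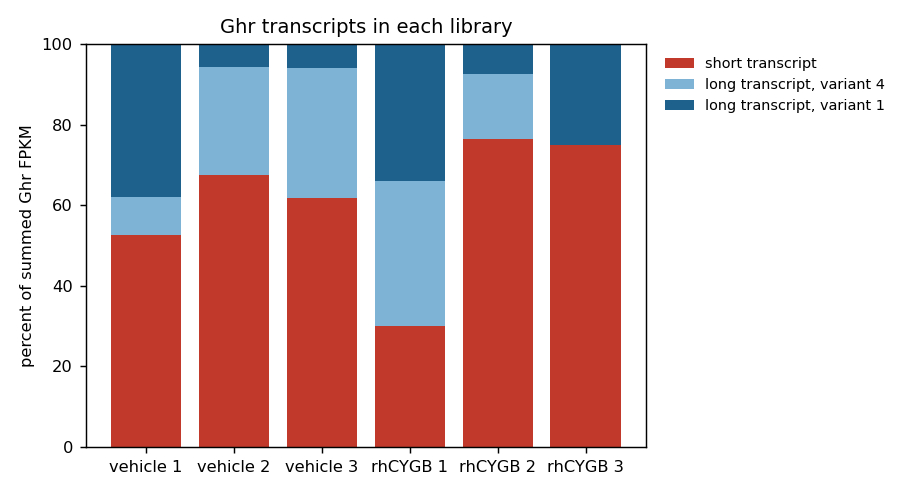
Share of each Ghr transcript in the gene's summed FPKM (vertical axis, percent, stacked) in the 6 libraries. The short transcript (red) ranges from 30.0% in rhCYGB replicate 1 to 76.4% in rhCYGB replicate 2, with the vehicle libraries between.

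The assembler's division among isoforms was unstable, and Ghr was no exception. Its long transcript NM_001286370 held 36.0% of Ghr FPKM in rhCYGB replicate 1 and 0.03% in rhCYGB replicate 3. The share of the short Ghr transcript comes from the same division and is uncertain too. The leading Socs2 transcript held 76.0% to 94.9% of its FPKM in every library and the leading Cish transcript 80.1% to 100%. For Bcl6 the leading transcript varied from 0% to 100% and for Stat5b from 4.98% to 100%, and of 12 transcript values of Bcl6 over the libraries 5 were listed at 0. For Igf1, the 2 transcripts with the last start position held 5.41%, 39.2% and 4.02% of its FPKM with vehicle and 5.57%, 37.7% and 17.2% with rhCYGB, so vehicle replicate 2 and rhCYGB replicate 2 were alike and the groups overlapped.

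The genes whose profile was most like that of Socs2 were sought among 9427 genes with a mean of at least 5 CPM, by the root-mean-square difference of centred log2(CPM + 0.5) values over the 6 libraries. The closest was Alas1, the first enzyme of heme synthesis, with a difference of 0.22, at 189, 168 and 172 CPM in vehicle livers, against 454, 509 and 797 in rhCYGB livers. Next came the monocarboxylate carrier gene Slc16a5 at 0.26, the mitophagy gene Bnip3 at 0.27, and Etnppl, which breaks down phosphoethanolamine, at 0.29. In each of these 4 rhCYGB replicate 3 was the highest library. The nearest members were Igfals at 0.55, Igf1 at 0.55 and Cish at 0.58, at positions 507, 518 and 714 in that order, and the farthest was Bcl6 at 1.33. Since the search took the best of many genes, likeness is a description over 6 libraries.

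Of 90 other genes of the pathway, in 5 lists, 88 were in the table, 81 were tested and 0 passed by edgeR in either direction (smallest adjusted p = 0.523). At an unadjusted p under 0.05, 8 were higher and 1 lower with rhCYGB, where all genes gave 6.06% higher and 2.06% lower. The groups were separated in CPM for 7 higher (8.64%) and 8 lower genes (9.88%), near the 6.02% and 7.38% of all genes. DESeq2 gave an adjusted p to 13 of the pathway genes and called 2, both higher, among them Cyp2a4 (DESeq2 adjusted p = 0.00198). Of all genes it called 65 of 1558 (4.17%). Without rhCYGB replicate 1 edgeR called 18 of 83 (21.7%), 9 in each direction, near the 23.2% it then called of all genes.

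Feedback, phosphatase and adaptor genes had lower values in 23 of 27 tested, with a median log2 fold change of -0.27 beside -0.06 for all genes. The most abundant were Sirpa, an inhibitory receptor that recruits phosphatases, at 124 ± 22.5 and 66.4 ± 17.3 CPM, Stat3 at 78.9 ± 6.26 and 98.8 ± 23.1 CPM, and the prolactin receptor gene Prlr at 77.0 ± 5.98 and 100.3 ± 17.5 CPM (SD, n = 3). Sirpa alone in this list had an unadjusted edgeR p under 0.05, with an edgeR adjusted p = 0.523, and was lower in every rhCYGB library than in any vehicle library. Among the other cytokine-suppressor genes Socs3 was at 21.9, 30.3 and 17.2 CPM in vehicle livers, against 22.2, 51.3 and 39.7 in rhCYGB livers. Socs1 was at 0.639, 0.582 and 0.884 CPM in vehicle livers, against 0.300, 0.334 and 0.372 in rhCYGB livers. Both were chosen after their values were seen, and neither passed (edgeR adjusted p = 0.523 for each). The median of the list was 0.07 without rhCYGB replicates 2 and 3, -0.63 without rhCYGB replicate 1 and -0.05 with the length trend removed.

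IGF axis genes were divided, with 7 of 14 tested higher and 7 lower and a median of -0.05. The carrier gene Igfbp4 was at 832 ± 137 and 1310.5 ± 482 CPM and Igfbp7 at 157 ± 26.95 and 139 ± 50.2 CPM (SD, n = 3). Igfbp2, another insulin-like growth factor carrier, was at 92.7, 269.5 and 168 CPM in vehicle livers, against 169, 499 and 1008 in rhCYGB livers, with replicate 1 in the vehicle range, as for Igfbp1. No other IGF axis gene had an unadjusted edgeR p under 0.05, and its edgeR adjusted p was 0.523.

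Growth hormone also sets the male and female patterns of liver enzymes, through the timing of its release. The sex of the mice is not given here, and no shift between these patterns is read from the lists. Of the male-biased targets 6 of 14 tested were higher and 8 lower, with a median of -0.37. Without rhCYGB replicates 2 and 3 that median was 0.12, and on log2(TPM + 1) it was -0.37, above the -0.51 of all genes. The pheromone carrier gene Mup20 was at 322, 2377 and 999.5 CPM in vehicle livers, against 1138, 1321 and 621 in rhCYGB livers, overlapping widely. The glutathione transferase gene Gstp1 was at 673 ± 238 and 1704 ± 714 CPM and Cyp2d9 at 477 ± 191 and 688 ± 240 CPM (SD, n = 3). Gstp1 and the bile acid enzyme gene Cyp7b1, the latter chosen after its value was seen, had unadjusted p-values under 0.05 (edgeR adjusted p = 0.523 for each).

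Of the female-biased targets 10 of 15 tested were higher and 5 lower, with a median of 0.37. Cyp2a4, a steroid hydroxylase, was at 72.9, 42.4 and 55.6 CPM in vehicle livers, against 154, 289 and 143 in rhCYGB livers, with no overlap. In TPM its groups overlapped, and its log2 fold change of 1.78 was 0.98 on log2(TPM + 1). Sult2a1, a sulfotransferase, was at 3.47, 1.40 and 22.4 CPM in vehicle livers, against 14.4, 89.6 and 177 in rhCYGB livers. Both had an unadjusted p under 0.05, as did Acot3 and the female-biased repressor gene Cux2, which were chosen after their values were seen (edgeR adjusted p = 0.523 for each). Cux2 was at 1.19, 0.837 and 1.82 CPM with vehicle, 0.938 in rhCYGB replicate 1, and 28.6 and 17.8 CPM in rhCYGB replicates 2 and 3. The female-biased median was -0.17 on log2(TPM + 1), against -0.51 for all genes, and 0.33 without rhCYGB replicates 2 and 3. Cyp2a4, Acot3, Gstp1, Cyp2d9 and the Mup genes have near-identical copies, so their counts are uncertain.

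Transcription factors that act with STAT5 or set sex bias were higher in 7 of 11, with a median of 0.20. Hnf4a, the hepatocyte factor, was at 334, 393 and 409 CPM in vehicle livers, against 472, 520 and 996 in rhCYGB livers, with no overlap (edgeR adjusted p = 0.523), and its log2 fold change was -0.01 on log2(TPM + 1). Cebpa was at 178 ± 40.0 and 133 ± 76.5 CPM and Cebpb at 46.2 ± 16.9 and 53.2 ± 40.5 CPM (SD, n = 3). None of the 11 had an unadjusted p under 0.05 by edgeR or was called by DESeq2. Hnf4a is also 1 of the 7 hepatocyte markers whose sum is given above.

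**Figure D5:**
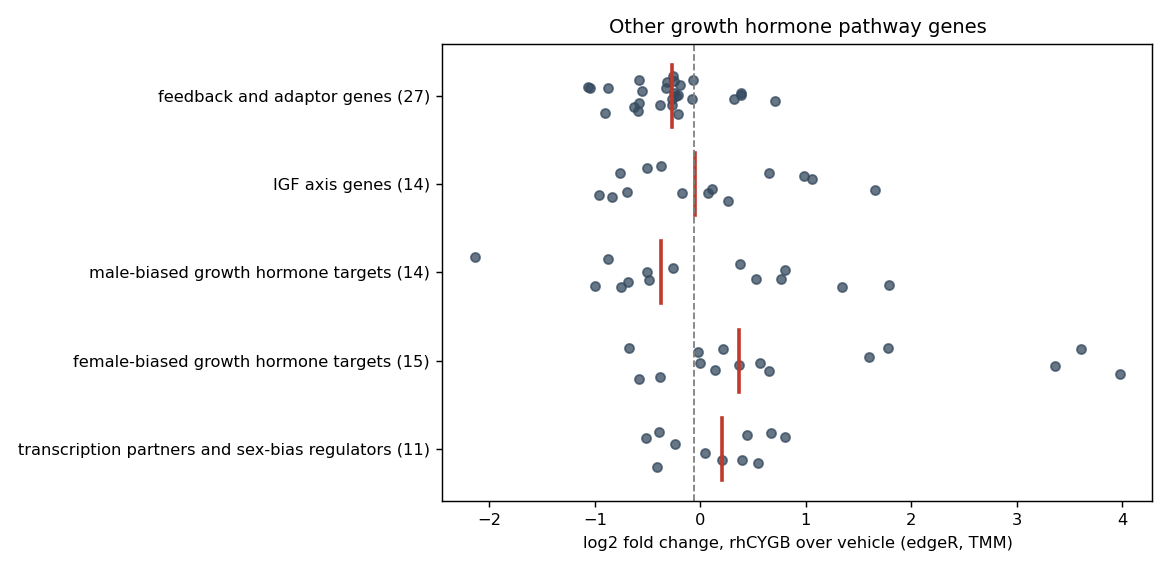
Log2 fold change of rhCYGB over vehicle (edgeR, TMM; horizontal axis) of each tested gene (dots) in the 5 pathway lists, with the number tested in brackets, list medians as red bars and the median of all genes as a dashed line. The female-biased list has a median of 0.37 beside -0.06 for all genes, and no gene passed by edgeR.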

How the data were processed

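Poly(A) libraries were made from liver RNA of 6 mice with a stranded kit, per the labels' protocols. StringTie 1.3.4d, HISAT2 2.1.0, FastQC 0.11.7 and the mm10 build are named in the submitters' processing notes. How strand was set, and which annotation release was used, is not given in the sources used here. The authors deposited estimated counts and FPKM for each gene and transcript. The deposited estimated counts equalled FPKM times transcript length times 1 constant per library within 1%, so the 2 measures hold the same information in a library. That equality does not show how much sampling error of reads the counts hold. Precision was judged from the spread between libraries. The main test was edgeR 4.0.16 in R 4.3.3 (filterByExpr, TMM, robust quasi-likelihood F test, Benjamini-Hochberg adjustment over all 14415 genes kept), and each SE is |log2 fold change| divided by √F. Python 3.11.15 computed TPM from the authors' FPKM, isoform shares, likeness and motif matches. The edgeR steps were tested on simulated counts that held no length trend and no split among the rhCYGB libraries. That test therefore does not cover these features of the data. Alternatives used DESeq2 1.42.0, limma 3.58.1, other scalings, filters and pseudocounts, removal of a loess length trend, and left-out libraries.

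The members, the 5 pathway lists, the 9 marker lists and the rules were chosen with earlier results of these data known. Named genes are the members, the 3 most abundant of each pathway list with any past the threshold, and the 5 genes most like Socs2. Values of 2 genes that this rule names are not reported here. An exact permutation test of 3 against 3 cannot go below p = 0.10, so none is given. Each library is labelled as a separate mouse.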

Additional observations from a re-analysis of the deposited data

How the results depend on the processing

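The count of genes past the threshold, 0 by edgeR, was 65 by DESeq2 and 4323 by limma-voom with sample quality weights, and 0 to 3391 with 1 library left out, the highest being without rhCYGB replicate 1 and 0 without any other. For the other pathway genes the count was 2 of 13 by DESeq2, beside 65 of 1558 for all genes. It was 28 of 81 by quality-weighted limma-voom, beside 4323 of 14415 for all genes. With 1 library left out it was 0 to 18, the highest being 18 of 83 (21.7%) beside 23.2% of all genes. Both counts stayed at 0 with DESeq2 size factors, upper-quartile factors, no filter, log2(TPM + 1), log2(TPM + 0.1) and the length trend removed. The setting without rhCYGB replicates 2 and 3, chosen after seeing the data, left 1 rhCYGB library, so only fold changes are given for it. Over 15 settings the log2 fold change ranged from 0.87 to 1.90 for Socs2, 0.02 to 1.04 for Cish, -1.70 to -0.07 for Bcl6, -1.17 to -0.0014 for Jak2 and -1.37 to -0.04 for Stat5a, with 1 sign each. It took the opposite sign in 4 settings for Ghr, 3 for Igf1, 2 for Igfals and 1 each for Stat5b and Igfbp1. All these signs are measured from 0, and that of Socs2 was known when the set was chosen. The median of all genes was -0.51 on log2(TPM + 1) and -0.75 on log2(TPM + 0.1). Relative to these medians Igf1 was at 0.38 and 0.62, Igfals at 0.36 and 0.60 and Ghr at -0.27 and -0.04. Jak2 was at 0.03 and Stat5a at -0.0040 relative to the median without rhCYGB replicates 2 and 3. Bcl6 was at 0 relative to the median by quality-weighted limma-voom and at -0.95 on log2(TPM + 0.1). The cause of the sign changes was not tested. The short Ghr transcript was 60.7% and 60.5% of FPKM but 33.8% and 37.2% of estimated counts, which weight long transcripts more. No paired analysis was possible because the labels give each mouse its own number and the groups share none.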
